A study of Homo sapiens with 4 samples.

Results

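The genes described here encode the protein kinases of the mitogen-activated protein (MAP) kinase cascade. Members were the probes of the array whose gene name is MAPK, MAP2K, MAP3K or MAP4K followed by a number, or MAPKAPK followed by a number. The rule used names only and no measured value, but it was chosen with earlier results of these data known. It took 61 of 34127 probes, which stand for 43 of 27193 gene names. Transcripts were measured in THP1, a human monoblastic AML cell line that carries the fusion gene MLL-AF9, on day 2 after transfection. One treatment was 30 nM miR-511 mimic, a synthetic RNA that supplies the mature miRNA miR-511-5p, and the other was 30 nM negative control #1 mimic. Each of 2 independent experiments gave 1 array per treatment, so there were 4 single-dye Agilent arrays, all on 1 slide. THP1 is 1 cell line, and cells without the fusion gene were not analysed here.

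In the MAP kinase cascade a signal passes through kinases that phosphorylate each other in order. MAP4K enzymes act on MAP3K enzymes, these act on MAP2K enzymes, and MAP2K enzymes activate a MAP kinase of the ERK, JNK or p38 type. MAPKAPK enzymes are substrates of p38 and ERK. In monocytes the cascade is known for relaying growth factor, cytokine and Toll-like receptor signals. The kinases are switched mainly by phosphorylation, and arrays measure only their transcripts.

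The mimic supplies hsa-miR-511-5p, which lies at chr10:17845122-17845142 on the plus strand of GRCh38.p14. Its sequence in RefSeq is shown because the seed (bases 2 to 8, in capitals) sets which 7-base stretch of a transcript pairs with it, AAAGACA.
hsa-miR-511-5p: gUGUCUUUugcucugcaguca
AAAGACA stood in the sense direction in 1 of the 61 member probes (1.64%) and in 331 of all 34127 probes (0.97%). That member is a MAP3K2 probe, at chr2:128065003-128065062 on the minus strand of hg19, and the site is in capitals in the 30 bases printed. The beginnings of the MAPK11 probes, which lie at chr22:50702278-50702337 and chr22:50703225-50703284 on the minus strand of hg19, are set beside it because the MAPK11 result differs between them. Neither of these holds AAAGACA.
MAP3K2: tgggggagaaaAAAGACAagagggaaagta
MAPK11, brighter probe: tctgtgggtcagtcctctttccttgtccca
MAPK11, dimmer probe: actcctatggtcacagacttctggcctagg
A match in a probe is a description of these 60 bases and says nothing of the rest of the transcript.

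Most of the cascade was detected in THP1. A probe was called detected on an array where the scanner software put it well above background. Of the 61 member probes, 55 were detected on all 4 arrays, 1 on 3 arrays (MAP3K15) and 5 on none. By gene, 40 of 43 had a probe detected on all 4 arrays. MAPK4 and MAPK10 had none detected on any array, and neither did the second probes of MAPK15 and MAP3K13. The test took 56 member probes of 41 genes, among 22638 probes in all. Per array, 64.8% to 69.3% of all probes were detected. Of 12 monoblast markers, 11 were on the array under that name, among them CD33, SPI1 and MPO, and all 11 were detected on every array. Among the markers of other cell types, MS4A1, CDH1, EPCAM, COL1A1 and COL3A1 were detected on no array, while CD3D, CD79A, KRT8, KRT18, CDH5, PECAM1, VWF and HBB were among those detected on all 4. None of the markers in any of these lists passed the test.

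Of the 56 tested member probes, 1 had an unadjusted limma p below 0.05, and it was lower with miR-511 mimic. This is the limma part of the study's criterion, whose further condition on identical replicate probes was not applied here. Over all tested probes 2.2% passed, with 1.27% higher and 0.932% lower, so 1 of 56 is near the background. After Benjamini-Hochberg adjustment no probe passed, member or not. The smallest adjusted p in limma was 0.790 over all probes and 1.00 over the members. The probe that passed belongs to MAPK11 (p38 beta). The smallest p among the 54 member probes of other genes was 0.136.

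The p38 MAP kinases respond to stress and inflammatory cytokines, and MAPK11 stood apart from the other isoforms. Its brighter probe (A_33_P3409513) had a normalized log2 intensity of 8.77 with miR-511 mimic and 9.92 with control mimic in experiment 1, and of 8.78 and 9.28 in experiment 2. Both miR-511 arrays were thus below both control arrays, and the miR-511 arrays differed by less than the control arrays did. The brighter MAPK11 probe was lower by 0.83 on the log2 scale (SE 0.24, 95% interval -1.49 to -0.17, limma unadjusted p = 0.0249, adjusted p = 1.00, n = 2 per treatment). This is a 1.77-fold lower signal, 2.23-fold in experiment 1 and 1.41-fold in experiment 2. In RNA from a whole culture, fewer cells with the transcript and less transcript per cell cannot be told apart. MAPK11 is among the genes for which the study made RT-qPCR primers, and it chose such genes from these arrays, so this call is not independent evidence. The paper does not name MAPK11 among the genes whose RT-qPCR difference was significant in its further experiments.

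The dimmer MAPK11 probe (A_33_P3409508), which starts at base 1245 of the transcript where the brighter one starts at base 2192, did not pass. Its log2 intensity was 5.87 with miR-511 mimic against 6.48 with control mimic in experiment 1, and 6.20 against 6.18 in experiment 2. The step was -0.61 in experiment 1 and 0.02 in experiment 2, and the arrays of the treatments overlapped. The fitted log2 difference was -0.30 (SE 0.18, 95% interval -0.79 to 0.19, limma unadjusted p = 0.170). Leaving out either miR-511 array ended the call of the brighter MAPK11 probe (limma unadjusted p = 0.0677 without experiment 1's and 0.0656 without experiment 2's), as did a plain equal-variance comparison of the 4 arrays (unadjusted p = 0.124). Without the control array of experiment 1 its log2 difference was -0.50, and without that of experiment 2 it was -1.15, both past the threshold.

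The other p38 isoforms did not pass. MAPK14 (p38 alpha, the most widely expressed isoform) had log2 intensities of 10.36 and 10.25 with miR-511 mimic and of 10.41 and 10.48 with control mimic in experiments 1 and 2. Both miR-511 arrays were below both control arrays by a small step, and the fitted log2 difference was -0.14 (SE 0.10, 95% interval -0.41 to 0.13). MAPK12 (p38 gamma) had 8.47 and 8.40 with miR-511 mimic against 8.31 and 8.58 with control mimic on its brighter probe. The experiments ran in opposite directions, with log2 differences of 0.16 and -0.18, and the fitted difference was -0.01 (SE 0.13, 95% interval -0.37 to 0.35). The dimmer MAPK12 probe ran the same way in each experiment, at 0.16 and -0.16, and its fitted difference of 0.00031 (SE 0.13) had no stable sign, as it was -0.026 under 75th percentile scaling and -0.12 after normexp. MAPK13 (p38 delta) had 9.22 and 8.51 with miR-511 mimic against 9.10 and 8.76 with control mimic. Its level was lower in experiment 2 under either treatment, and the fitted log2 difference was -0.06 (SE 0.29, 95% interval -0.85 to 0.72). The other MAPK13 probe gave -0.08 (SE 0.22) with the same pattern over the arrays. Over the 7 p38 probes, 6 fitted differences were below 0, with a median of -0.08, but only 2 probes had the same sign in both experiments.

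**Figure D1:**
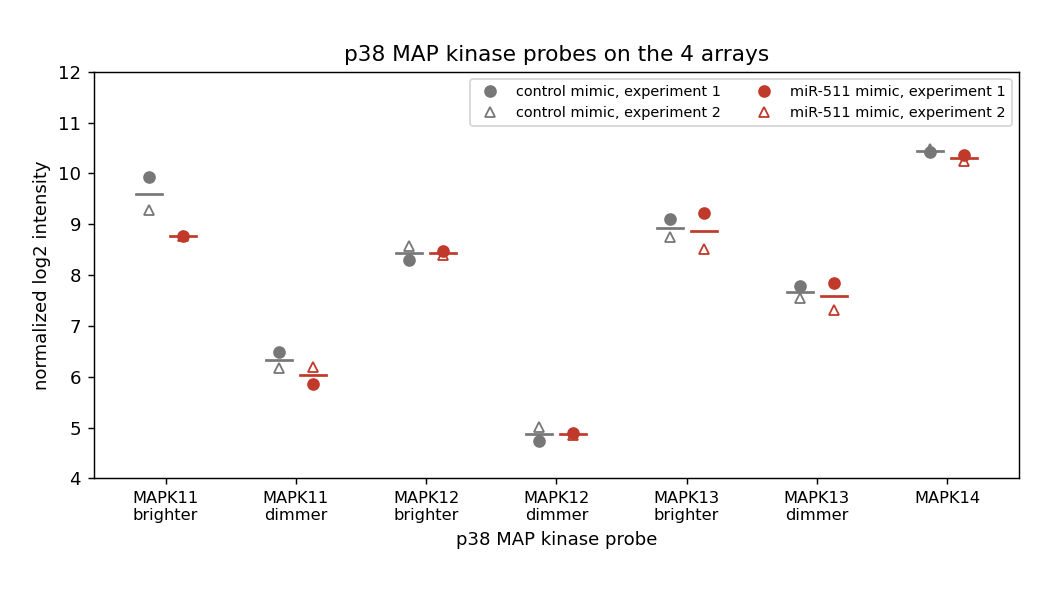
Normalized log2 intensity (vertical axis) of the 7 p38 probes on the 4 arrays, grey for control mimic and red for miR-511 mimic, circles for experiment 1 and triangles for experiment 2, with a bar at each treatment's mean (n = 2). The brighter MAPK11 probe lies near 8.8 on both miR-511 arrays and at 9.28 and 9.92 on the control arrays, while the points of MAPK12 and MAPK13 overlap between treatments.

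The ERK-type MAP kinases, which act mainly in growth factor signalling, showed no call. Their 6 tested probes had fitted log2 differences from -0.15 to 0.24, 3 above and 3 below 0, with a median of 0.03. MAPK3 (ERK1) had 8.08 and 8.07 with miR-511 mimic against 8.01 and 8.43 with control mimic, so that only the control array of experiment 2 differed from the rest. MAPK7 (ERK5) had 10.54 and 10.44 against 10.42 and 10.37, higher on both miR-511 arrays, with a fitted log2 difference of 0.09 (SE 0.10). MAPK6 (ERK3) had log2 differences of 0.08 and -0.08 on 1 probe and of 0.01 and -0.03 on the other, so each changed sign between the experiments. MAPK15 had 4.88 and 4.81 with miR-511 mimic against 4.31 and 4.90 with control mimic, where the control array of experiment 1 was the low one.

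MAPK3 was printed 10 times on each array, which gives the error of a spot. The SD between its spots was 0.039 to 0.119 on the log2 scale over 9 to 10 spots per array. The 10 spots on the control array of experiment 2 ran from 8.23 to 8.60, above every spot of the other arrays, the highest of which was 8.18. The MAPK3 spots of this array therefore did not overlap those of the other arrays. Spots of 1 array share 1 RNA sample, so the spread between them covers the printing and reading of a spot and not the experiment.

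**Figure D2:**
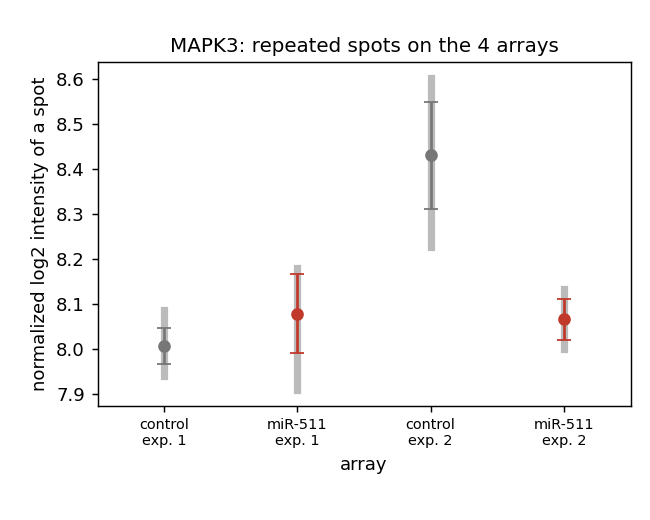
Normalized log2 intensity of the repeated spots of MAPK3 on each array (9 or 10 spots), with the mean as a point, the SD between spots as an error bar and the lowest to highest spot as a broad grey bar; the vertical axis does not start at 0. The spots on the control array of experiment 2 (mean 8.43) lie above those of the other arrays.

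The JNK MAP kinases, which phosphorylate JUN under stress, had no call, although all 5 tested probes of MAPK8 and MAPK9 had fitted log2 differences above 0. These ran from 0.02 to 0.36 with a median of 0.14, and 4 of the 5 were higher in both experiments. Over all tested probes, 53.7% had a fitted difference above 0, and 6625 of 22638 were higher in both experiments. A MAPK9 (JNK2) probe that the files assign to NM_001135044 had log2 intensities of 9.01 and 9.33 with miR-511 mimic and 8.45 and 9.16 with control mimic. The control array of experiment 1 was the low one, the treatments overlapped, and the fitted log2 difference was 0.36 (SE 0.28, 95% interval -0.41 to 1.14). In limma with the experiment as a block its SE was 0.14, and it did not pass there either (unadjusted p = 0.0781). The other MAPK9 probe, assigned to NM_002752, had 10.548 and 10.491 against 10.503 and 10.424, a step of 0.04 and 0.07 in experiments 1 and 2. MAPK8 (JNK1) has 3 probes. On 1 of them, with 6.54 and 6.55 against 6.44 and 6.17, both miR-511 arrays were above both control arrays, and the fitted log2 difference was 0.24 (SE 0.13, 95% interval -0.12 to 0.60). The log2 differences of its other probes were 0.17 and 0.10 on one, and -0.03 and 0.07 on the other, in experiments 1 and 2. MAPK10 (JNK3, mainly a neuronal kinase) was detected on no array, so no difference is given.

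The MAP2K enzymes phosphorylate the MAP kinases themselves, and all 10 of their probes were detected on every array. Their fitted log2 differences ran from -0.21 to 0.09 with a median of 0.02, and none passed. MAP2K1 (MEK1, upstream of ERK) had log2 intensities of 11.65 and 11.64 with miR-511 mimic and 11.61 and 11.51 with control mimic, and a fitted log2 difference of 0.09 (SE 0.09). MAP2K2 (MEK2) had log2 differences of -0.11 and 0.04 in experiments 1 and 2, which oppose each other. MAP2K6, which activates p38, had 5.73 and 6.46 against 5.98 and 6.63. Its level rested mainly on the experiment, being higher in experiment 2 under both treatments, and the fitted log2 difference was -0.21 (SE 0.35, 95% interval -1.17 to 0.75). In limma with the experiment as a block the SE was 0.08, and MAP2K6 did not pass there either (unadjusted p = 0.0788). MAP2K3, the other p38 activator, had log2 differences of 0.14 and 0.03 on its brightest probe, where both miR-511 arrays were the higher ones, while its other probes changed sign between experiments. MAP2K4 and MAP2K7, which activate JNK, and MAP2K5, which activates MAPK7, had log2 differences between -0.19 and 0.20 in each experiment. The second MAP2K4 probe also matched the pseudogene MAP2K4P1 in RefSeq, so its signal may hold transcripts of both.

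The MAP3K enzymes are the widest tier and showed no shared direction. Of 20 tested probes of 15 genes, 10 had fitted log2 differences above 0 and 10 below, with a median of -0.00034 and a range from -0.17 to 0.29. MAP3K2, whose second probe carries the AAAGACA stretch printed above, had log2 intensities on that probe of 7.84 and 7.90 with miR-511 mimic and 7.78 and 7.66 with control mimic. Both miR-511 arrays were above both control arrays there, with a fitted log2 difference of 0.15 (SE 0.10, 95% interval -0.13 to 0.43). The other MAP3K2 probe, without the stretch, had 9.71 and 9.96 against 10.02 and 9.93, with log2 differences of -0.31 and 0.03. MAP3K7 (TAK1, which relays Toll-like receptor and cytokine signals) had 11.86 and 11.66 against 11.68 and 11.58, and a fitted log2 difference of 0.13 (SE 0.12). MAP3K1 had 13.86 and 13.80 against 13.75 and 13.67, higher on both miR-511 arrays. MAP3K8 (TPL2, which links Toll-like receptors to ERK) had log2 differences of 0.11 and 0.06 in experiments 1 and 2. MAP3K5 (ASK1, a stress kinase) had -0.03 and -0.10 on its brighter probe and -0.11 and 0.01 on the other. MAP3K12 had 5.91 and 5.91 against 6.05 and 5.92, the only MAP3K probe with both miR-511 arrays below both control arrays.

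Some MAP3K probes had treatment steps of opposite sign in the experiments. MAP3K10 had log2 differences of 0.31 in experiment 1 and -0.65 in experiment 2, with 8.06 and 7.71 on the miR-511 arrays and 7.75 and 8.37 on the control arrays. MAP3K15 had -0.14 and 0.72, with 4.22 and 4.05 against 4.36 and 3.33, and the last of these was not well above background. The dimmer MAP3K6 probe had 0.29 and -0.34. MAP3K3, MAP3K4, MAP3K9, MAP3K11, MAP3K13 and MAP3K14 had tested probes whose log2 differences stayed between -0.28 and 0.31 in each experiment.

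The MAP4K enzymes, related to yeast STE20, lay mostly above 0 and none passed. Of 5 probes, 4 had fitted log2 differences above 0, where 53.7% of all tested probes did. The range was -0.08 to 0.14 with a median of 0.11. MAP4K1 (HPK1, a kinase of blood cells) had log2 intensities of 10.14 and 9.90 with miR-511 mimic and 9.86 and 9.89 with control mimic. The step was 0.28 in experiment 1 and 0.0036 in experiment 2, and the fitted log2 difference was 0.14 (SE 0.12, 95% interval -0.20 to 0.48). MAP4K2 had 10.53 and 10.38 against 10.33 and 10.32, with a fitted log2 difference of 0.13 (SE 0.10). MAP4K5 was likewise higher on both miR-511 arrays, at 9.66 and 9.62 against 9.50 and 9.57. MAP4K4 had log2 differences of 0.18 and -0.11, and MAP4K3 had 0.02 and -0.18, both of which change sign between experiments.

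The MAPKAPK kinases, at the receiving end of p38, had all 3 probes lower in both experiments, by small steps that did not pass. Over all tested probes, 4913 of 22638 were lower in both. MAPKAPK2, which p38 activates and which stabilizes cytokine transcripts, had log2 intensities of 12.24 and 12.12 with miR-511 mimic and 12.30 and 12.22 with control mimic. Its fitted log2 difference was -0.08 (SE 0.10). MAPKAPK5 had 12.02 and 11.90 against 12.03 and 12.10, both miR-511 arrays below both control arrays, and a fitted log2 difference of -0.11 (SE 0.10, 95% interval -0.38 to 0.17). MAPKAPK3 had 13.48 and 13.44 against 13.49 and 13.47, with log2 differences of -0.01 and -0.03.

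**Figure D3:**
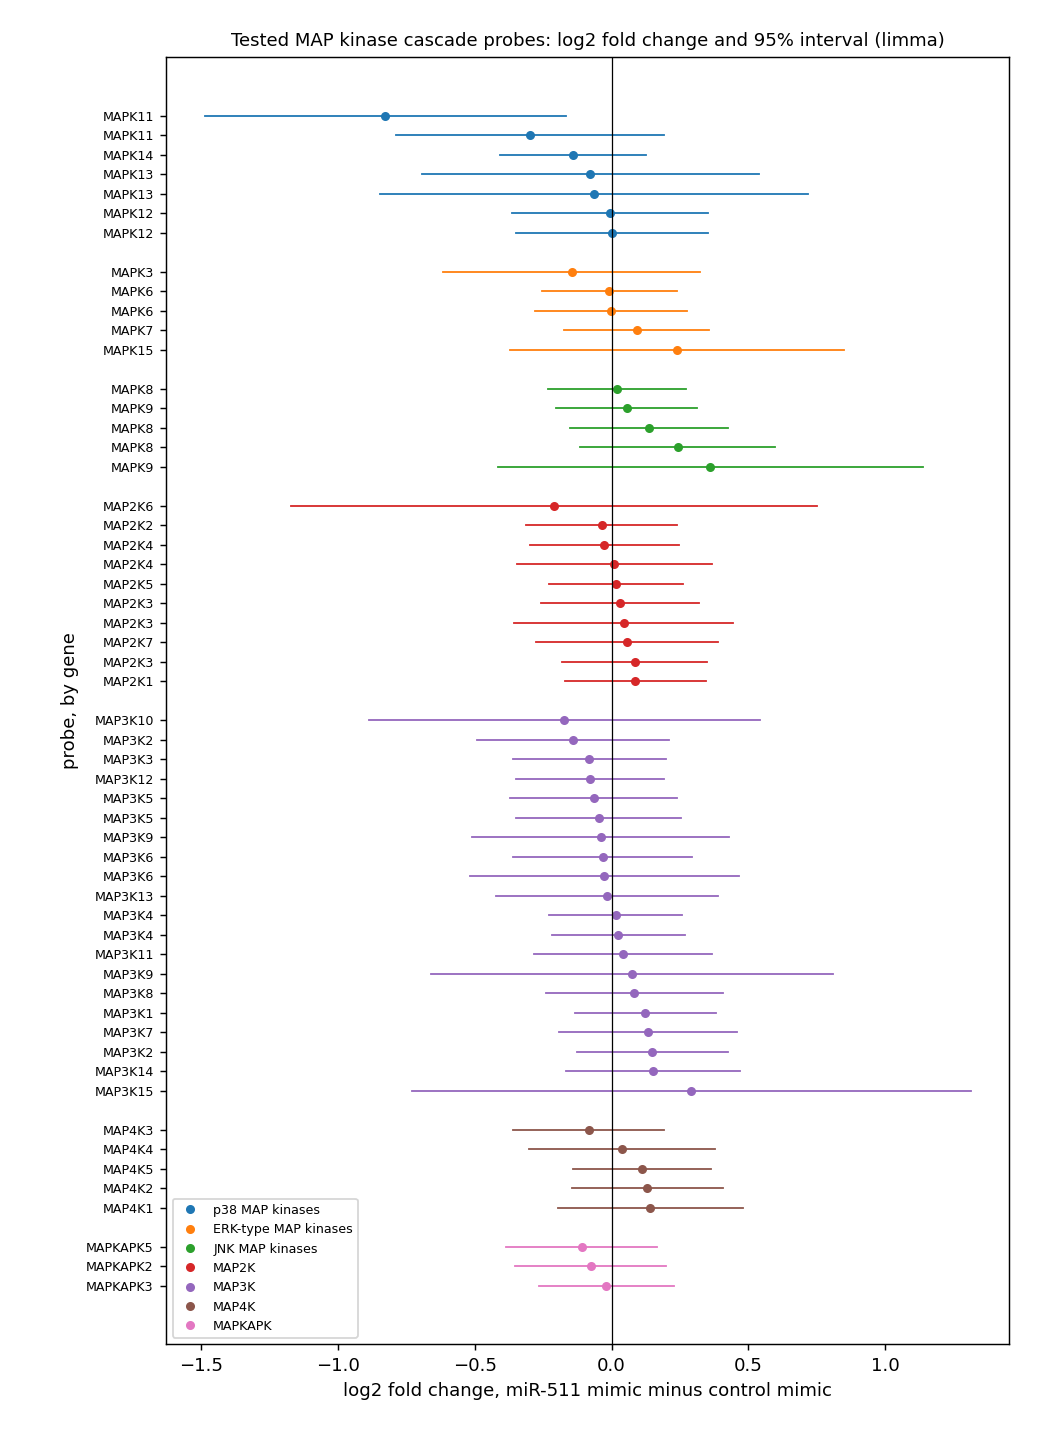
Fitted log2 fold change, miR-511 mimic minus control mimic (horizontal axis), of 55 of the 56 tested member probes with its 95% interval from limma, grouped and coloured by tier, a gene's several probes each on a line of their own. The interval of the brighter MAPK11 probe (-1.49 to -0.17) is the only one drawn that leaves out 0.

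Across the cascade the members differed between treatments about as much as other transcripts. The median fitted log2 difference was 0.01 over the 56 tested member probes and 0.0098 over all 22638 tested probes, and the median size was 0.08 in each. In size, 36 members were under 0.1, 18 lay between 0.1 and 0.3, and 2 were over 0.3. Both miR-511 arrays were above both control arrays for 11 members, or 19.6%, where the background was 15.6%. The 11 probes were of MAPK7, MAPK8 (2 probes), MAP2K1, MAP2K3, MAP3K1, MAP3K2, MAP3K4, MAP4K1, MAP4K2 and MAP4K5. Both were below both control arrays for 4 members, or 7.14%, where the background was 10.1%. These were probes of MAPK11, MAPK14, MAP3K12 and MAPKAPK5. Only 2 arrays per treatment entered, and the smallest two-sided p of an exact permutation of 2 against 2 arrays is 0.333. The 95% intervals nevertheless bounded most members, since 52 of 56 lay inside a 2-fold change either way and 44 inside a 1.5-fold change. Their median width to either side was 0.32 on the log2 scale, from 0.24 to 1.02.

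The 2 experiments gave the same sign for 27 of the 56 tested members (48.2%), where 51.0% of all tested probes had the same sign. Of these members, 18 were higher and 9 lower in both, where 6625 and 4913 of all 22638 tested probes were. In experiment 1, 39 of the 56 members were higher with miR-511 mimic, and in experiment 2, 26 were. Over all tested probes, 57.8% were higher in experiment 1 and 49.8% in experiment 2. The median log2 difference of the members was 0.07 in experiment 1 and -0.02 in experiment 2, against 0.03 and -0.00055 over all probes. MAPK11 on its brighter probe was the member with the lowest value in experiment 1, at -1.15, and it was also lower in experiment 2, at -0.50. The probes of MAPK15 and MAPK9 with differences of 0.57 and 0.56 in experiment 1 had -0.09 and 0.17 in experiment 2.

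**Figure D4:**
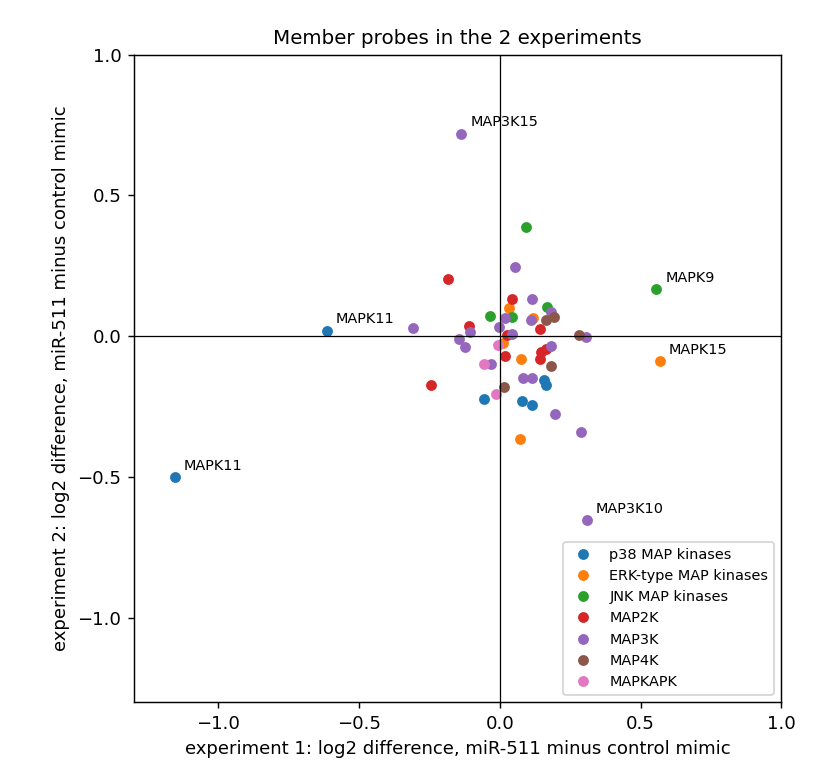
Log2 difference, miR-511 mimic minus control mimic, of the 56 tested member probes in experiment 1 (horizontal axis) and experiment 2 (vertical axis), 1 array per treatment in each, coloured by tier. Most points lie within 0.3 of 0 on both axes, and the brighter MAPK11 probe (-1.15 and -0.50) is far from 0 in the same direction in both.

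Of the 43 genes, 16 had several probes, and 13 of these had at least 2 tested. The probes of 9 genes had fitted differences of the same sign. Those of MAP2K4, MAP3K2, MAP3K9 and MAPK12 had opposite signs. For MAPK12 and MAP2K4 the probes were 0.0064 and 0.036 apart on the log2 scale. MAPK11 had the widest spread of these genes, as its probes were 0.53 apart, followed by MAPK9 at 0.31 and MAP3K2 at 0.29. For 7 member probes, among them that of MAPK14, the coordinates span more than the 60 bases of the probe, so they read across a splice junction.

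The other genes of the pathway were taken from a list of 71 names, of which 66 were on the array with 97 probes, and 85 of these were tested. None passed limma's unadjusted threshold, where 2.2% of all probes did. With the experiment as a block 2 of the 85 passed, DUSP5 and MAPK8IP1, where 3.95% of all probes did. With the plain equal-variance comparison another 2 passed, SOS1 and STK4, where 3.13% of all probes did. The median fitted log2 difference of the list was 0.02, with 48 of 85 probes above 0, where 53.7% of all tested probes were. DUSP5, a phosphatase of ERK, had log2 intensities of 6.09 and 5.70 with miR-511 mimic and 5.58 and 5.43 with control mimic. It was higher on both miR-511 arrays, with a log2 difference of 0.39 (SE 0.17, limma unadjusted p = 0.0817, with the block unadjusted p = 0.0322). MAPK8IP1, a scaffold of JNK, had 6.01 and 5.77 against 5.66 and 5.19, a log2 difference of 0.46 (SE 0.20, limma unadjusted p = 0.0839, with the block unadjusted p = 0.0220). After normexp both log2 differences were smaller, at 0.13 for DUSP5 and 0.19 for MAPK8IP1, and neither passed. These pathway genes, and those in the next sentences, were chosen after their values were seen.

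By group, the transcription factors downstream of the cascade had 15 of 20 tested probes above 0, with a median of 0.07. Over all tested probes 53.7% were above 0. Only 8 of the 20 transcription factor probes (40%) had the same sign in both experiments, where 51.0% of all tested probes did. In experiment 1, 15 of the 20 were higher with miR-511 mimic, and in experiment 2, 11 were. The dual-specificity phosphatases, which switch MAP kinases off, had 7 of 11 above 0, and RAS and RAF genes had 6 of 11. Effector kinases had 4 of 11 above 0, scaffolds and adaptors 8 of 18, and STE20-type and ZAK kinases 8 of 14. EGR1, an immediate early gene induced through ERK, had the largest fitted difference of the list, and the control array of experiment 1 was the low one. Its log2 intensity was 12.39 and 11.84 with miR-511 mimic and 10.71 and 11.91 with control mimic, and the fitted log2 difference was 0.81 (SE 0.47, limma unadjusted p = 0.156). It was 0.21 without the control array of experiment 1 and 1.40 without that of experiment 2. FOS had 11.08 and 10.63 against 10.53 and 10.69, where only the miR-511 array of experiment 1 stood above the rest. Its fitted log2 difference of 0.24 (SE 0.19) was 0.02 without that array, and 0.47 without the other miR-511 array. TNIK, a kinase related to MAP4K4, had log2 intensities on its brighter probe of 7.10 and 6.61 with miR-511 mimic and 7.31 and 6.90 with control mimic. It was lower in both experiments there, with a fitted log2 difference of -0.25 (SE 0.24). Its dimmer probe had 4.56 and 5.52 against 6.01 and 5.49, where the experiments differed, with log2 differences of -1.45 and 0.03. The fitted difference of the dimmer probe was -0.71 (SE 0.39). It was -0.23 without the miR-511 array of experiment 1 and -1.19 without that of experiment 2.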

How the data were processed

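RNA of THP1 cells was profiled on 4 single-dye Agilent arrays. The authors deposited scanner files with the processed intensity of each spot, background-subtracted and not normalized between arrays, made with Agilent Feature Extraction (10.5.1.1 per the labels, 10.7.3.1 per the file headers). They also deposited a table of quantile-normalized log2 values, used as an alternative. It ranks spots as the scanner values do.

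In R 4.3.3 with limma 3.58.1, log2 of the intensity of 43118 non-control spots was quantile normalized as in the study, leaving out 232 to 301 marked outlier spots per array. Spots of a probe were averaged. A probe printed 10 times counted as detected where over 50% of its spots were well above background. Probes detected on both arrays of a treatment were tested with lmFit and eBayes (4.14 degrees of freedom, two-sided), without a block. The study also required a change over identical replicate probes, which was not applied, because how copies on 1 array enter that test is not given in the sources used here. The precision is limited by the number of arrays.

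Titles number the experiments, and the experiment pairs the arrays. Deviations of same-numbered arrays correlated at 0.271 over all tested probes and 0.301 over the members. Coordinates are those of the files (hg19). By accession, 59 of 61 member probes matched a RefSeq gene of GRCh38.p14, 58 of them 1 gene with the name in the files. Fits are given for p38 probes, probes past the threshold and, in each tier, the 2 largest differences detected on all arrays with the same direction in both experiments. The values of 1 member gene are not reported here, and it stays in the counts and medians. Members and lists were chosen with earlier results of these data known. The fit was tested on simulated data.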

Additional observations from a re-analysis of the deposited data

How the results depend on the processing

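Alternatives were 75th percentile scaling, normexp (offset 50), dim probes kept or filtered more strictly, marked spots kept, the deposited table, an intensity trend in eBayes, a replicate block, a plain equal-variance comparison of the arrays and leaving out each array. The count of member probes past the unadjusted threshold was 1 in every setting that kept the 4 arrays, except the plain comparison, which gave 0. With an array left out, 1 treatment had 1 array, so counts of passing probes are not given for those fits. The member count of 1 did not hold in those fits. The MAPK9 probe with a fitted log2 difference of 0.36 was at 0.0079 without the control array of experiment 1. It was at 0.72 without that of experiment 2. The call of MAPK11 under these settings stands with its result. No probe passed after adjustment in any setting that kept the 4 arrays. There the unadjusted calls over all probes were 498 (2.2%) in the main fit, 265 (1.17%) with normexp and 285 (1.26%) with the intensity trend. They were 708 (3.13%) with the plain comparison, 894 (3.95%) with the replicate block and 1029 (3.02%) with dim probes kept. The replicate block left the member count at 1 (MAPK11, -0.83, unadjusted p = 0.0279). The pathway count, 0, was 2 with dim probes kept (KSR1 and RPS6KA5), 2 with the replicate block, 2 with the plain comparison and 0 to 3 when an array was left out. Beside 3 for each of the control arrays and for the miR-511 array of experiment 2, it was 0 for that of experiment 1. The members' median stayed between -0.025 and 0.077 when an array was left out.

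The dimmer MAPK12 probe was -0.026 with 75th percentile scaling, -0.12 with normexp, -0.0015 with marked spots kept and -0.0045 in the deposited table, and leaving out an array gave -0.13 to 0.13. Leaving out an array also turned the sign of the brighter MAPK12 probe (-0.14 to 0.13), the MAPK13 probes (-0.42 to 0.29 and -0.35 to 0.20) and MAP2K6 (-0.57 to 0.15). These fits held no block, so the level of an experiment enters them when its pair of arrays is broken. Within the experiments MAP2K6 was lower with miR-511 mimic in both, at -0.25 and -0.17, while the MAPK12 and MAPK13 probes changed sign. The cause of the turns in sign was not tested.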
